A study of Mus musculus with 6 samples.

Results

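The promoters of 9 germline genes were examined for H3K27ac in mouse embryonic stem cells (mESCs). The genes, chosen by name, were Dazl, Ddx4, Mael, Asz1, Sycp1, Sycp3, Hormad1, Stk31 and Tex101, out of 21938 protein-coding genes in the annotation. They are known as genes that somatic cells and early embryonic cells hold silent with the help of DNA methylation. In the control cells, 7 of the 9 had no H3K27ac peak at any promoter, whereas Dazl and Stk31 each had a narrow one. Of all protein-coding genes, 51.9% had a promoter peak. A peak in the gene body, present in 17.4% of all protein-coding genes, was found at Stk31 alone among the 9.

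H3K27ac is acetylation of lysine 27 on histone H3, a mark found at active promoters and enhancers. It was measured by chromatin immunoprecipitation and sequencing (ChIP-seq) with the antibody ab4729 in E14 cells, an established mouse line labelled E14Tg2A Rosa26-Cre Oct4-IRES-Puro. All cells grew in N2B27 medium with LIF and the inhibitors PD0325901 and CT-99021. Control cells received the solvent DMSO for 2 h, and the other cells received either NVP-2 (100 nM), an inhibitor of the elongation kinase CDK9, or actinomycin D (ActD, 800 nM), which binds DNA and blocks transcription, for the same time, with 2 replicates per condition and human HEK293 chromatin added as a spike-in. The authors deposited 22973 control peaks, called on the 2 control replicates together, and every value below rests on these positions, so no value has a replicate error and no test between conditions could be made from them. The NVP-2 and ActD libraries, and the changes per peak after treatment that the study published, were not used here.

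Germline genes encode the proteins that build germ cells, silence transposons and carry chromosomes through meiosis. Many of their promoters are rich in CpG dinucleotides, the sites at which vertebrate DNA is methylated, and methylation of these promoters keeps the genes off outside the germline. A repressor complex, PRC1.6, is also known to act on them in mESCs, where E2F6 and the pair Mga and Max bring it to DNA. Cells grown with the inhibitors named above are known to carry less DNA methylation than cells grown in serum. DNA methylation and transcription were not measured in the list used here, so the name of the group as methylation-silenced genes could not be checked directly. Dazl and Stk31 carried the acetylation mark, which by itself does not show whether they were transcribed. The 9 genes are called germline genes below.

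A gene was called marked where a peak overlapped by at least 1 bp a window of 1 kb on either side of the transcription start site (TSS) of any of its isoforms. By this rule 2 of the 9 germline genes were marked, a share of 22.2% (95% Wilson interval 6.32 to 54.7%). Among all protein-coding genes 11384 were marked, or 51.9% (51.2 to 52.6%). Each interval covers only the counting error of a share over genes, and with 9 genes that of the germline genes reached past the share of all genes. A gene without a listed peak is not shown to lack the mark, since the authors kept only peaks of a minimum height near open chromatin, and signal and depth cannot be read from the list.

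The sequences before the start sites are printed for the marked genes Dazl and Stk31, and, of the 5 unmarked genes that hold both motifs described next, for 1 gene of the piRNA pathway (Ddx4) and 2 of meiotic chromosomes (Sycp3 and Hormad1). Each run holds the 250 bases before a RefSeq start site in GRCm38.p6, read 5′ to 3′ on the strand of the gene. Capitals mark the letters TCCCGC or, on the other strand, GCGGGA, a motif known for E2F6, and CACGTG, an E-box known for Mga and Max, which reads the same on both strands.
Dazl (chr17:50293621-50293870, minus strand): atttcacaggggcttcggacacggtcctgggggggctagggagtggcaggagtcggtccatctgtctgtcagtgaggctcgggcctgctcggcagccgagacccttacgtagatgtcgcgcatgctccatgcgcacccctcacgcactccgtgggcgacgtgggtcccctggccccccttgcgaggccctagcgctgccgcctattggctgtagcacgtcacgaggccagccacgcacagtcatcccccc
Stk31 (chr6:49395354-49395603, plus strand): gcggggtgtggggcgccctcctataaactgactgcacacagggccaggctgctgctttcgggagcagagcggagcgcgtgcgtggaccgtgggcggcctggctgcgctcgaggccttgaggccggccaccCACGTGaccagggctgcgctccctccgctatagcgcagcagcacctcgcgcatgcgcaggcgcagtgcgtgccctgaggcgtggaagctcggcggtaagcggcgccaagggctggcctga
Ddx4 (chr13:112652311-112652560, minus strand): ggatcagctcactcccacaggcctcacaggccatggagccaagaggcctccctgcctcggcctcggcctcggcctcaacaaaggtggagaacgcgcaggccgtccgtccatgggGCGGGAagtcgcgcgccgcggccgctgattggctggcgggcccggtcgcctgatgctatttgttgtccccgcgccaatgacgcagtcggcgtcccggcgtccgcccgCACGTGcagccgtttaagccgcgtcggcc
Sycp3 (chr10:88459337-88459586, plus strand): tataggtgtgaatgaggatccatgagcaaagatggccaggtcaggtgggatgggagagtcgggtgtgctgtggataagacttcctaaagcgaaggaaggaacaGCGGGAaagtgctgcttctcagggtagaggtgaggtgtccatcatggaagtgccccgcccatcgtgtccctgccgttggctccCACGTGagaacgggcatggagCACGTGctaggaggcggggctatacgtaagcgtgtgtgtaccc
Hormad1 (chr3:95559427-95559676, plus strand): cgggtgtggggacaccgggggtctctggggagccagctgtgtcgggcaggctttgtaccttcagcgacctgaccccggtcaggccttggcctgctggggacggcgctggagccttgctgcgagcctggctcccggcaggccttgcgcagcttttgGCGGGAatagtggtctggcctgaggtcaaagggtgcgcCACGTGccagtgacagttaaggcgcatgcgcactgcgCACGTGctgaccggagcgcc

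Both marked genes lacked TCCCGC in the 300-base promoter of RefSeq, which holds 250 bases before and 50 after the start, and Dazl also lacked CACGTG. The motif TCCCGC was present in 5 of the 9 germline genes, namely Ddx4, Mael, Sycp1, Sycp3 and Hormad1, and none of these 5 was marked. Counted per gene in the same way, 29.2% of the 16539 protein-coding genes with a RefSeq promoter held it, and 20% of all 32851 RefSeq promoters did. The E-box was present in the same 5 genes and in Stk31, against 9.19% of protein-coding genes and 7.15% of promoters. Both motifs were present together in those 5 genes, in 3.69% of protein-coding genes and in 1.99% of promoters. In Ddx4 they began 136 and 29 bases before the RefSeq start site, 112652310. That site and both motifs lie downstream of the TSS of the longest Ddx4 isoform, 112652475, used for the distances and CpG windows below. In Sycp3 TCCCGC lay 147 bases and 2 copies of CACGTG lay 64 and 43 bases before the start site. In Hormad1 TCCCGC lay 95 bases and CACGTG 57 and 20 bases before it. Tex101 and Asz1 held neither motif and were unmarked. These are matches of letters and not measured binding.

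Other germline genes were counted in the same way. In 3 further lists of 81 germline genes, 65 had a RefSeq promoter sequence, and TCCCGC was present in 26 of them, of which 16 were marked, and absent from 39, of which 13 were marked. CACGTG was present in 19, of which 7 were marked, and absent from 46, of which 22 were marked. Of 8 genes with both motifs 3 were marked, and of 28 with neither 9 were. With TCCCGC the marked share was thus the larger in these lists and the smaller among the 9 genes, whereas with CACGTG it was the smaller in both. These differences were not tested. Among all protein-coding genes with a sequence, 76.2% of those with TCCCGC were marked against 44.9% of those without it, so that across all genes the motif went with more marked promoters. For CACGTG the shares were 71.2% and 52.3%, and 77.5% of the genes with both motifs were marked against 43% of those with neither. Each motif holds a CpG itself, and no share of genes with a motif given here or above was matched for CpG content.

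Dazl encodes an RNA-binding protein that controls translation in germ cells. The gene (ENSMUSG00000010592.9) is located on chromosome 17, minus strand, at 50279395 to 50293636 in GRCm38 (mm10), with 6 annotated isoforms, each with a TSS of its own. The promoter peak, chr17:50292401-50293625, was 1225 bp wide. It ran from 11 to 1235 bp downstream of the TSS of the longest isoform, so that this TSS lay just outside it, whereas the RefSeq start site, 50293620, lay inside. The peak covered the TSS of a protein-coding isoform at 50292892 and that of a retained-intron transcript at 50293599. The protein-coding TSS at 50287581, 4820 bp from the peak, had none in its window, nor did the retained-intron TSSs at 50284442 and 50283323. Of the peak, 219 bp fell in exon 1 of the longest isoform. No further peak lay within 50 kb of a Dazl TSS.

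Stk31, which encodes a Tudor-domain protein with a kinase-like domain made in testis, was the other marked gene. It (ENSMUSG00000023403.14) is located on chromosome 6, plus strand, at 49395604 to 49469501. Its promoter peak, chr6:49395509-49396138, was 630 bp wide and ran from 95 bp upstream to 534 bp downstream of the TSS of the longest isoform. It covered 81 bp of exon 1 and the TSS shared by 2 more isoforms at 49395635. The start of the fourth isoform, at 49438564, lay 21382 bp from the nearest peak.

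Both promoter peaks were narrow. Over all marked protein-coding genes the widest promoter peak had a median of 2304 bp, and 14.7% of those genes had a widest promoter peak no wider than that of Dazl and 3.89% one no wider than that of Stk31. Over the whole list the median width was 2068 bp, with 19.3% of peaks no wider than the Dazl peak and 6.56% no wider than the Stk31 peak. The promoter peaks of pluripotency genes in the same cells were far wider, with a median of 35028 bp over 8 marked genes of 9 that included Pou5f1, Sox2 and Nanog. Of these 8 genes, 3 were marked only by a peak shared with another gene's promoter. Klf4, the unmarked gene, lay 14.1 kb from a peak. Width is the extent of signal the authors called and merged, and heights are not in the list.

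The body of Stk31 held a second peak, chr6:49410810-49417182, that was 6373 bp wide, against 630 bp for the promoter peak. It lay within intron 6 of the longest isoform, 15.2 kb downstream of a TSS, and overlapped the promoter window of no gene. Of all peaks, 85.1% were no wider. In base composition it stood apart from the promoter peak of the same gene, with an observed to expected CpG ratio of 0.122 and a GC content of 38.7%, against 0.709 and 59.2%. The Dazl promoter peak had a ratio of 0.839 and a GC content of 61.9%. Stk31 was the only 1 of the 9 genes with a body peak outside the promoter windows. Of all protein-coding genes, 17.4% had such a peak.

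**Figure D1:**
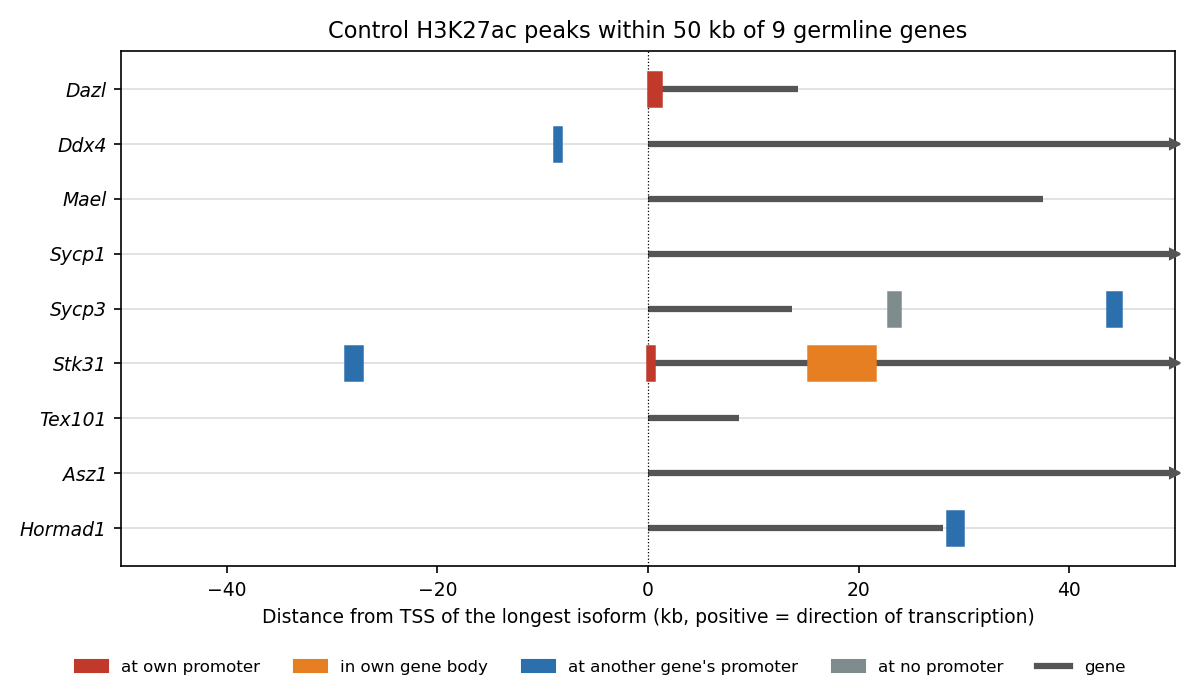
Control H3K27ac peaks within 50 kb of the 9 germline genes. The horizontal axis gives the distance in kb from the TSS of the longest isoform, positive in the direction of transcription, grey bars are genes (arrowheads where they run past 50 kb) and coloured boxes are peaks by place. Only Dazl and Stk31 have a box at the TSS, only Stk31 has one inside the gene, and no box lies in the rows of Mael, Sycp1, Tex101 and Asz1.

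A peak lay within 50 kb of a TSS for 5 of the 9 genes, against 73.9% of all protein-coding genes and 84% of the 81 genes of the wider germline lists. Every gene with a promoter peak is counted here, so the comparison partly repeats that of promoters. Such genes were 11384 of the 16221 protein-coding genes counted, and Dazl and Stk31 among the 5. The map of peaks around each gene shows where the peaks within 50 kb of the 9 genes lay. For Dazl the only such peak was that of its own promoter. Apart from the peaks at and in Dazl and Stk31, all of these peaks overlapped the promoter of another gene (Slc38a9, Chpt1, Fam221a or Golph3l) with the exception of 1 near Sycp3.

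The 3 genes of the piRNA pathway and nuage, the cytoplasmic body where piRNAs that silence transposons are made, were all unmarked. Ddx4, the RNA helicase known as mouse vasa homolog (ENSMUSG00000021758.14), is located on chromosome 13, minus strand, at 112598333 to 112652475. The nearest peak, chr13:112660781-112661358, lay 8306 bp upstream of its TSS, was 578 bp wide and overlapped the promoter of Slc38a9, which encodes a lysosomal amino acid transporter. Mael, which encodes maelstrom, a protein needed for piRNA-directed silencing (ENSMUSG00000040629.8), is located on chromosome 1, minus strand, at 166201201 to 166238747, and its nearest peak was 78.2 kb away, downstream. Asz1, which encodes a nuage scaffold protein at the mitochondria (ENSMUSG00000010796.11), is located on chromosome 6, minus strand, at 18050964 to 18109061, and its nearest peak was 115 kb away, upstream. Of these 3 genes Ddx4 alone had a peak within 50 kb, and with peaks at least 1 kb wide its nearest peak lay 98843 bp away.

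The 3 genes of meiotic chromosome structure were also unmarked. Sycp1 encodes the transverse filament of the synaptonemal complex, which holds paired chromosomes together (ENSMUSG00000027855.13), and is located on chromosome 3, minus strand, at 102818499 to 102936100. Its nearest peak lay 55.9 kb upstream, just outside the 50 kb limit. Sycp3 encodes a component of the chromosome axis (ENSMUSG00000020059.9) and is located on chromosome 10, plus strand, at 88459569 to 88473236. A peak of 1140 bp, chr10:88482326-88483465, lay 22.7 kb downstream of its TSS within Chpt1 at no promoter, and a peak of 1362 bp lay 43.5 kb downstream at the promoter of Chpt1, which encodes a choline phosphotransferase. Hormad1 encodes a HORMA-domain protein of unsynapsed chromosome axes (ENSMUSG00000028109.14) and is located on chromosome 3, plus strand, at 95559677 to 95587671. A peak of 1527 bp, chr3:95588105-95589631, began after the end of the gene, 28.4 kb downstream of its TSS, at the promoter of Golph3l. The body peak count of all 3 genes was 0.

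Tex101 encodes a glycoprotein on the surface of testicular germ cells that is needed for sperm function. The gene (ENSMUSG00000062773.6) is located on chromosome 7, minus strand, at 24668007 to 24676675. Of the 9 genes it had the farthest nearest peak, 120 kb downstream of a TSS. The stretch without a peak around it spanned 298 kb and held a TSS of 10 protein-coding genes, Tex101 included, more than the 3 or 4 in the stretches around each of the other 6 unmarked genes.

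The unmarked germline genes lay about as far from peaks as other unmarked genes. Their median distance from a TSS to the nearest peak was 55.9 kb (8.31 to 120 kb, n = 7), against 60.1 kb for the 10554 protein-coding genes without a promoter peak. Among those genes 12.6% lay as near to a peak as Ddx4 or nearer, 28.9% as near as Sycp3, 33.5% as near as Hormad1, 48.1% as near as Sycp1, 56.2% as near as Mael, 64.8% as near as Asz1 and 65.8% as near as Tex101. The stretches without a peak around them ranged from 102 kb at Sycp3 to 383 kb at Asz1, and from 24.3 to 55.6% of unmarked genes lay in a stretch as short or shorter.

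**Figure D2:**
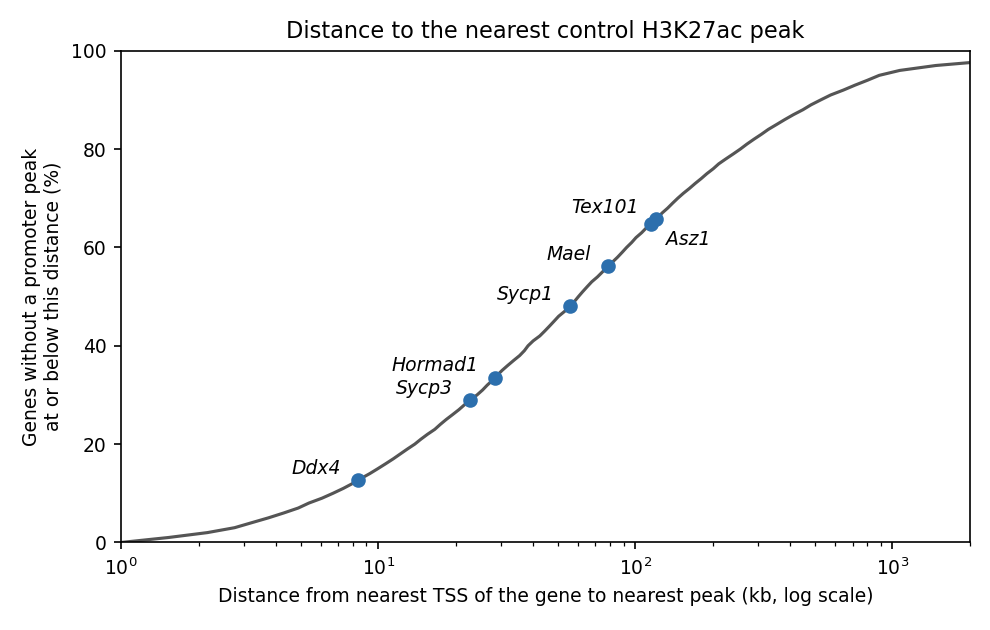
Distance from a gene's nearest TSS to the nearest control peak (kb, log axis) against the share of the 10554 protein-coding genes without a promoter peak that lie at or below this distance (%). Points mark the 7 unmarked germline genes, which run along the curve from Ddx4 at 8.31 kb and 12.6% to Tex101 at 120 kb and 65.8%.

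Neighbouring genes were marked in some of these regions and not in others. Within 50 kb of the TSSs of the 9 genes lay TSSs of 16 other protein-coding or lincRNA genes, of which 5 were marked, namely Slc38a9, Chpt1, Gnptab, Fam221a and Golph3l. Of all protein-coding and lincRNA genes 44.3% were marked. The peak of Gnptab lay at a TSS more than 50 kb from Sycp3. The other 11 were unmarked, among them Ildr2 beside Mael, Nr1h5 beside Sycp1, Wnt2 beside Asz1, Ctss beside Hormad1, all 4 neighbours of Tex101 and all 3 neighbours of Dazl, which are lincRNA genes. Dazl was thus marked in a region with no other marked promoter within 50 kb. Fam221a, the marked neighbour of Stk31, carried its 1580 bp peak 27.2 kb upstream of the Stk31 TSS.

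The germline genes were compared with genes of like CpG content, since CpG-rich promoters are the ones most often marked. A promoter was placed in the high class where any 500 bp window from 900 bp before to 400 bp after a TSS had an observed to expected CpG ratio over 0.75 and a GC content over 55%, in the low class where no window exceeded 0.48, and otherwise in the intermediate class. Of the 9 genes 6 fell in the high class, with highest ratios of 0.99 for Dazl, 0.94 for Ddx4, 0.93 for Sycp1, 0.89 for Hormad1 and 0.87 for both Mael and Stk31. Of these 6, Dazl and Stk31 were marked, whereas 81.6% of the 11182 protein-coding genes of the high class were (80.8 to 82.3%). Asz1 (0.75), Sycp3 (0.70) and Tex101 (0.63) fell in the intermediate class and none of them was marked, against 41.9% of 4201 genes (40.4 to 43.4%). None fell in the low class, of which 7.69% of 6555 genes were marked. With 6 and 3 genes these shares are coarse, and the classes depend on the window. With the 1 kb on either side of a TSS taken as 1 window, Dazl alone fell in the high class (87.8% marked among all genes), 7 genes fell in the intermediate class, of which Stk31 was marked (77.3% among all genes), and Tex101, unmarked, fell in the low class.

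The marked genes were not set apart by the CpG content at the start site. At the TSS of the longest isoform the 300 bp window held 32 CpGs in both Dazl and the unmarked Ddx4, 28 in Mael and Sycp1, 25 in Stk31, 23 in Hormad1, 19 in Asz1, 18 in Sycp3 and 8 in Tex101. The other TSS of Tex101, 24672050, was richer, with 19 CpGs in the 300 bases of its RefSeq promoter, and by its longest isoform alone Tex101 fell in the low CpG class with a highest ratio of 0.38. Dazl differed in the reach of its CpG-rich stretch. Windows with a ratio over 0.75 made up 22.6% of those within 3 kb of its TSS, with the longest run centred between 560 and 1160 bp downstream, under the peak, against 13.3% at Sycp1, 6.98% at Ddx4, 6.64% at Mael, 5.65% at Stk31, 5.32% at Hormad1, 1.66% at Asz1 and 0 at Sycp3 and Tex101. At 1 kb downstream the window still held 15 CpGs at Dazl and between 0 and 9 at the other 8 genes. Stk31, the other marked gene, had its longest run of such windows centred between 320 and 120 bp upstream of the TSS, outside the peak. The peak began 95 bp upstream, and the 300 bp windows at the near end of the run reached into it. Further windows over 0.75 were centred between 80 and 20 bp upstream and at 40 and 60 bp downstream, under the peak. The highest number of CpGs at Stk31, 29, was reached by a window centred 160 bp upstream, outside the peak, and by another centred 40 bp upstream, under it.

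**Figure D3:**
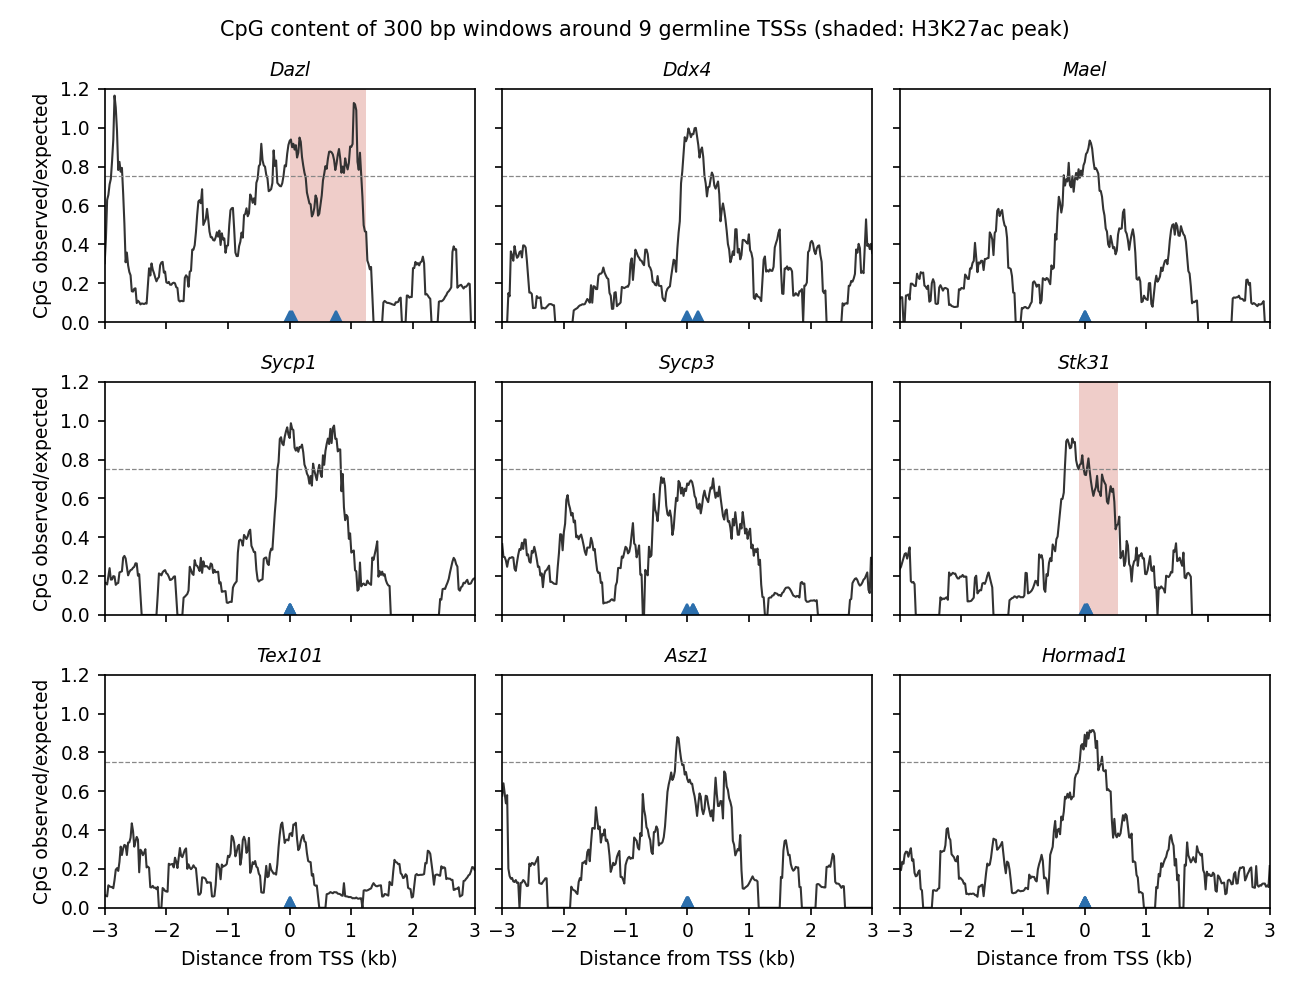
Observed to expected CpG ratio (vertical axis, no unit) of 300 bp windows within 3 kb of the TSS of the longest isoform for each of the 9 genes, with the distance in kb along the direction of transcription. The dashed line is a ratio of 0.75, triangles are annotated TSSs and shading is an H3K27ac promoter peak. The ratio rises over 0.75 at 7 of the 9 genes, and a peak covers the CpG-rich stretch downstream of the TSS at Dazl and part of that around the TSS at Stk31.

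The wider germline lists were marked at shares near that of all genes, with intervals that overlapped that of the 9 genes. Of 21 genes of the piRNA pathway and nuage 8 were marked (38.1%, 20.8 to 59.1%), of 37 genes of meiotic chromosomes and recombination 19 (51.4%, 35.9 to 66.6%), and of 23 germ cell regulators and testis genes 10 (43.5%, 25.6 to 63.2%), which made 37 of 81 in all (45.7%, 35.3 to 56.5%) beside 51.9% of all protein-coding genes. A part of these peaks belonged as much to a neighbour, since 12 of the 37 genes were marked by peaks that also overlapped the promoter of another gene. With such shared peaks left out for every gene, an alternative chosen after the data were seen, 25 of the 81 were marked against 36.9% of all protein-coding genes, and 2 of the 9 as before. In the high CpG class 19 of 41 were marked (46.3%) beside 81.6% of all genes of that class, and in the intermediate class 16 of 33 (48.5%) beside 41.9%. In the low class 2 of 7 were marked (28.6%) beside 7.69%.

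The widest promoter peak of the marked genes in these lists had a median of 1737 bp, below the 2304 bp of all marked genes. The widest lay at Nanos3 (28382 bp), which encodes an RNA-binding protein needed for primordial germ cells, then at the meiotic crossover genes Msh4 (8599 bp) and Msh5 (7189 bp), at the piRNA co-chaperone gene Fkbp6 (4821 bp) and at the crossover gene Mlh3 (4456 bp). Of these 5, all but Mlh3 shared the peak with another gene's promoter. The narrowest lay at Pld6 (174 bp) and Piwil2 (663 bp) of the piRNA pathway, at the crossover helicase gene Hfm1 (658 bp), at Tex15 (760 bp) and at the meiotic cohesin gene Smc1b (795 bp). Among these narrowest peaks only that of Smc1b was shared, with the promoter of Ribc2, and that of Pld6 lay 198 bp from a TSS. By width Stk31 with 630 bp would stand between Pld6 and Hfm1. Of unmarked genes, Gm4969, which encodes the meiotic initiator Meiosin, lay 1.47 kb from a peak, Rec114 3.15 kb and Nanos2 3.38 kb, and Pgk2, Nobox and Mei4 lay 247, 356 and 965 kb away.

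All 23 genes of a list of factors that repress germline genes were marked, or 100% (85.7 to 100%), with a median widest promoter peak of 6025 bp. The list holds PRC1.6 subunits such as E2f6, Mga, Max and L3mbtl2, the DNA methyltransferases Dnmt1, Dnmt3a and Dnmt3b, and enzymes of H3K9 methylation such as Setdb1, Ehmt1 and Ehmt2. All 23 promoters fell in the high CpG class, of which 81.6% were marked among all genes. Of markers of other cell types that a culture could hold, Gata4 and Gata6 of 3 primitive endoderm genes, Eomes of 3 trophoblast genes and 0 of 3 fibroblast feeder genes were marked, beside 51.9% of all protein-coding genes. The 3 marked ones were of the high CpG class, as was the unmarked Sox17 of primitive endoderm. The unmarked Cdx2 and Hand1 of trophoblast and the 3 fibroblast genes were of the intermediate class. With 3 genes per type and unlike CpG classes, these counts say little about cell type.

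**Figure D4:**
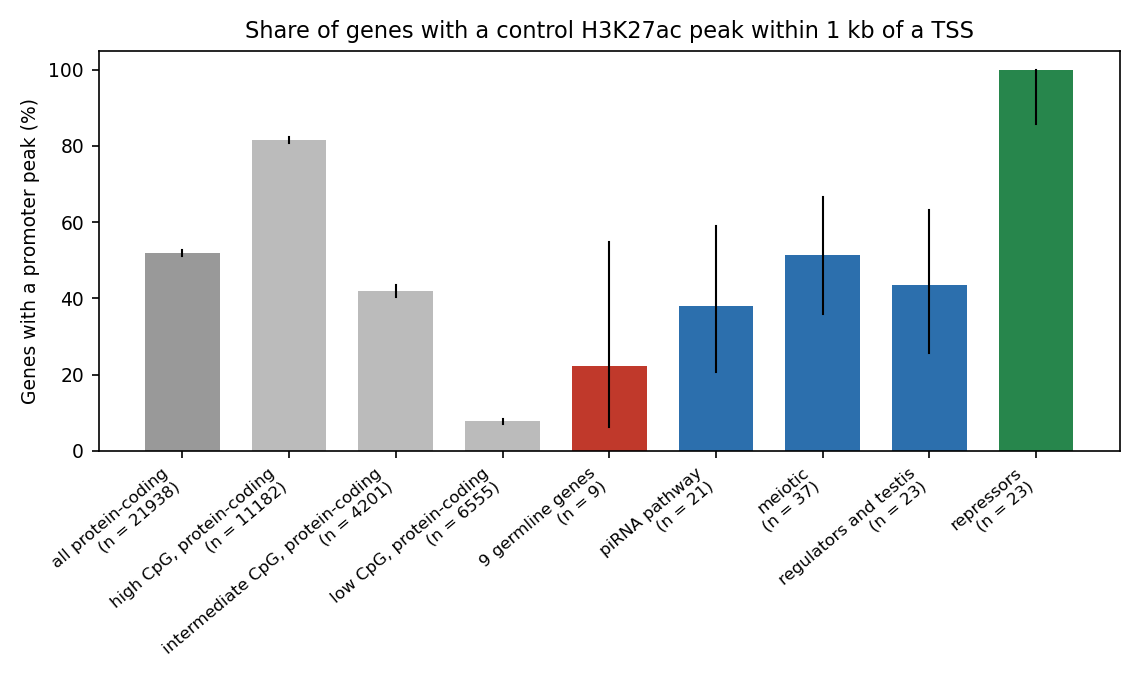
Share of genes with a control H3K27ac peak within 1 kb of a TSS (%), with 95% Wilson intervals as vertical lines, for all protein-coding genes, the CpG classes, the 9 germline genes, the 3 wider germline lists and the repressor list. The 9 germline genes stand at 22.2% with an interval from 6.32 to 54.7%, beside 51.9% of all protein-coding genes and 100% of the repressor genes.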

How the data were processed

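The authors trimmed reads with Cutadapt, aligned them with bwa meme to mm10 and a human genome together, removed duplicates (Picard 2.9.1) and low-quality alignments (samtools 1.4), used LanceOtron for peak calling, joined peaks closer than 2 kb with Bedtools, and kept peaks above height thresholds near ATAC-seq summits. The deposited file holds positions in base pairs of peaks pooled over both control replicates, without heights, scores or read counts, so depth cannot be read from it, and the read totals in the study's reporting summary were not used here. It was compared here with GENCODE M21 genes (GRCm38), all isoforms, and with RefSeq sequence of GRCm38.p6; coordinates are printed 1-based and no peak reached past a chromosome end. The members and lists were chosen with earlier results of these data known. Named genes are the 9 members, genes whose promoters overlap peaks within 50 kb of them, the 5 widest and 5 narrowest marked and the 3 nearest and 3 farthest unmarked genes of the germline lists, and any unmarked repressor gene, of which there was none. Other genes named were chosen after their values were seen. No statistical test was made. The overlap functions were tested on simulated data. Python 3.11.15, numpy 2.4.6 and matplotlib 3.10.9 were used.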

Additional observations from a re-analysis of the deposited data

How the results depend on the processing

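No paired analysis was possible because the list pools both control replicates; for the same reason no replicate could be left out. The count of 2 marked genes among the 9 fell to 1 with peaks at least 1 kb wide, which lost Stk31, and to 1 when the TSS base of the longest isoform had to lie in a peak, which lost Dazl by 11 bp, an alternative added after the data were seen. It stayed at 2 under the other alternatives. The 51.9% of all protein-coding genes became 52.7% with windows of 2 kb, 49.1% with the TSS base, 48.7% with the longest isoform, 50.8% with protein-coding transcripts, 46.6% with peaks of 1 kb or more, 50.5% when 500 bp had to overlap, 40.2% by peak midpoint, 44.3% with lincRNA genes, 45.5% for genes without another TSS within 2 kb and 36.9% without peaks at other genes' promoters. The 5 genes with a peak within 50 kb became 3 within 20 kb (Dazl, Stk31 and Ddx4) and 3 without peaks at other genes' promoters (Dazl, Stk31 and Sycp3), while the share of all protein-coding genes went from 73.9% to 64.7% and 58.5%. The median distance over the 9 genes, 28.4 kb, became 55.9 kb with peaks at least 1 kb wide. The 6 genes in the high CpG class became 1 when the window of 1 kb on either side was taken whole. The 37 marked genes of the wider germline lists ranged from 25 to 38. The causes were not tested. The list has no heights, so the narrow peaks of Dazl and Stk31 cannot be ranked by signal.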

Other observations

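Further components of the synaptonemal complex, chosen after their values were seen, were mixed. Syce2 of the central element carried a promoter peak of 1575 bp and 4930447C04Rik, which encodes Six6os1, one of 811 bp. Sycp2, Syce1, Syce3 and Tex12 carried none, with nearest peaks 186, 32.7, 18.2 and 41.2 kb away. Within the repressor list, peaks ran from 1167 bp at E2f6 to 32426 bp at Trim28, which shared its peak with Chmp2a, Ube2m and Zbtb45.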
